A study of Mus musculus with 8 samples.

Results

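The glycolytic enzyme genes are 10 genes whose products carry glucose from hexokinase to lactate: Hk1, Hk2, Gpi1, Aldoa, Tpi1, Pgk1, Pgam1, Eno1, Pkm and Ldha. They were chosen by gene symbol, and all 10 were found among the 10913 genes of the deposited count table. They were measured in group 2 innate lymphoid cells (ILC2), lymphocytes that reside in tissue and release type 2 cytokines, sorted from enzymatically dissociated thymus. The mice were young males lacking Il25 (Il25 KO, 4 libraries) and, as controls, age-matched wild-type males (Il25 WT, 4 libraries), and neither group was treated. IL-25 is a cytokine that tuft cells release and that ILC2 sense. The labels give neither the origin of the knockout line nor the animals behind each library. The p-values therefore measure only the spread between these samples, which may be technical.

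Glycolysis splits glucose into pyruvate in the cytosol and gains ATP at the steps of phosphoglycerate kinase and pyruvate kinase. Lactate dehydrogenase then turns pyruvate into lactate and returns the NAD+ that the pathway uses. Lymphocytes are known to raise glycolysis when they are activated, and the transcription factors HIF-1 and MYC are known to act on many of its genes. Phosphofructokinase and glyceraldehyde-3-phosphate dehydrogenase, which act just before aldolase and just before phosphoglycerate kinase, are described with the wider pathway.

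Libraries were made by MARS-seq, which reads the 3′ ends of polyadenylated transcripts and counts each captured molecule by a unique molecular identifier (UMI). The KO libraries held 1915365 to 2932999 UMIs and the WT libraries 2398817 to 3250718. A molecule is counted once whatever its length, so levels of different genes are set side by side in CPM, counts scaled by TMM to a common library total. Il25 itself was not analysed here, so the genotype labels had no check from its transcript. ILC2 markers, 8 of 12 genes, summed to 576 to 612 CPM in KO libraries, against 457 to 582 in WT libraries. Of these 8 genes, Il17rb and Areg had all KO libraries above all WT libraries, where 2.92% of tested genes did. Of the 6 tested, edgeR called 0 at an adjusted p under 0.05. Il17rb stood at 169 to 191 CPM in KO libraries, against 146 to 161 in WT libraries. Areg stood at 32.9 to 61.9 CPM in KO, against 15.7 to 32.5 in WT. Gata3 stood at 51.7 to 82.0 CPM in KO, against 48.8 to 65.5 in WT. Icos and Il13 lay near the floor. Icos had 0 to 2.92 CPM in KO, against 0.857 to 2.71 in WT, and Il13 1.29 to 9.17, against 0.787 to 7.78. Rora, Il1rl1, Klrg1 and Il5 were not analysed here. Thymocyte and T cell markers summed to 3671 to 4213 CPM in KO libraries, against 3407 to 3537 in WT replicates 2 to 4 and 4502 in WT replicate 1, over 13 of 14 genes. Summed B cell, dendritic cell and macrophage markers, 8 of 14 genes, lay at 183 to 205 CPM in KO libraries, against 163 to 187 in WT replicates 2 to 4 and 512 in WT replicate 1. Of the 13 thymocyte and T cell genes, 3 had all KO libraries below all WT libraries, where 2.31% of tested genes did. In 1, Dntt, they lay above, where 2.92% of tested genes did. Dntt stood at 2170.2 to 2542 CPM in KO, against 1828 to 2110.0 in WT. Cd8b1 lay at 33.6 to 47.9 CPM in KO, against 55.5 to 65.0 in WT replicates 2 to 4 and 355 in WT replicate 1. Cd3d lay at 120.1 to 188 CPM in KO, against 216 to 317 in WT, and Ptcra at 26.4 to 33.1 CPM in KO, against 39.6 to 60.8 in WT. The edgeR adjusted p of Cd8b1, Cd3d and Ptcra were 0.185, 0.0521 and 0.0917, and the part of these genes' source cells in the glycolytic values was not tested. With RNA of other cells present, fewer cells of a type and less RNA per cell cannot be told apart.

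None of the glycolytic enzyme genes passed the threshold of an edgeR adjusted p under 0.05 between KO and WT, while their levels spanned more than 2 orders of magnitude along the pathway. Ldha, which encodes the muscle-type chain of lactate dehydrogenase, was the most abundant, and Pkm, which encodes pyruvate kinase, came next. Pgk1, Pgam1 and Hk2 lay near the bottom. Together the 10 genes took 0.209% to 0.270% of all UMIs of a library, and Ldha, Pkm and Tpi1 held 73.2% to 78.4% of that.

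**Figure D1:**
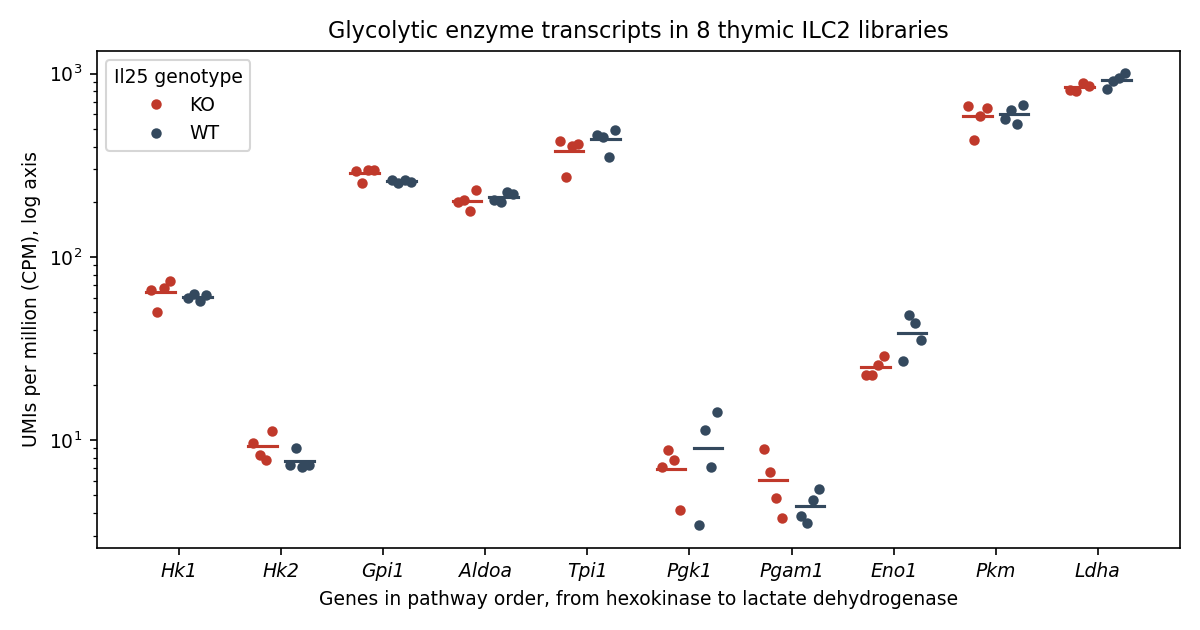
CPM (log axis) of each gene in pathway order, with 1 point per library and a bar at the group mean, KO left and WT right (n = 4 each). Ldha averaged 841 CPM in KO, against 922 in WT, whereas Pgk1 and Pgam1 stayed below 15 CPM in all 8 libraries.

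At the first step, the phosphorylation of glucose, most hexokinase transcripts were Hk1. Hk1, the hexokinase present in most tissues, stood at 66.4, 50.2, 67.7 and 74.2 CPM in KO replicates 1 to 4 and at 59.6, 62.98, 57.2 and 61.7 CPM in WT replicates 1 to 4. Hk2, the isozyme known to be induced by growth signals, stood at 9.69, 8.28, 7.74 and 11.3 CPM in KO libraries, against 7.28, 9.05, 7.10 and 7.28 in WT libraries. The groups overlapped for both genes. Hk2 made up 12.6 ± 1.66% of hexokinase UMIs in KO and 11.3 ± 0.892% in WT (SD, n = 4 each), with overlapping ranges. Log2 fold changes of KO over WT were 0.11 ± 0.12 for Hk1 and 0.27 ± 0.23 for Hk2 (SE), with edgeR adjusted p of 0.793 and 0.710.

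Gpi1 and Aldoa, which encode glucose-6-phosphate isomerase and aldolase, varied least along with Ldha. Gpi1 stood at 293, 255, 298 and 299 CPM in KO libraries, against 261, 253, 263 and 255 in WT libraries. KO replicates 1, 3 and 4 lay above all WT libraries and KO replicate 2 lay within their range. Its log2 fold change was 0.15 ± 0.10 (SE), with an edgeR adjusted p of 0.615. Aldoa stood at 198, 203, 178 and 231 CPM in KO libraries, against 206, 200.4, 226 and 221 in WT libraries. The highest and the lowest library were both KO, and the log2 difference was -0.07 ± 0.11 (SE, edgeR adjusted p = 0.840).

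Tpi1, which encodes the triosephosphate isomerase that interconverts the products of aldolase, was high but uneven. It stood at 427, 274, 402 and 415 CPM in KO libraries, against 461, 449, 349.8 and 495 in WT libraries. KO replicate 2 lay below all other libraries, and the other KO libraries lay within the WT range. The log2 difference was -0.21 ± 0.14 (SE, edgeR adjusted p = 0.613), and -0.076 without KO replicate 2. Tpi1 overlaps Spsb2 on the opposite strand, a gene with 2820 UMIs in the table, and the strand setting of the counting is not stated. Hk1 likewise overlaps its antisense gene Hk1os, which held 77 UMIs. Hk2, Gpi1 and Aldoa overlap Gm17034, Gm26762 and Fam57b on the opposite strand, and Pkm overlaps Gm49759 on the same strand.

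Pgk1 and Pgam1, of the payoff steps between triose phosphate and pyruvate, gave the lowest counts of the 10 genes. Pgk1, which encodes the kinase that makes the first ATP of the pathway, stood at 7.08, 8.80, 7.74 and 4.17 CPM in KO libraries, against 3.43, 11.4, 7.10 and 14.2 in WT libraries. Both the highest and the lowest library were WT, 4.15-fold apart, and the counts behind these levels were 8 to 45 UMIs. Pgam1, which encodes phosphoglycerate mutase, stood at 8.95, 6.73, 4.84 and 3.75 CPM in KO libraries, against 3.86, 3.54, 4.74 and 5.38 in WT libraries, from 9 to 24 UMIs. KO replicates 1 and 2 lay above all WT libraries, and KO replicates 3 and 4 within their range. Log2 fold changes were -0.42 ± 0.34 for Pgk1 and 0.44 ± 0.31 for Pgam1 (SE), with edgeR adjusted p of 0.692 and 0.642. Single libraries moved both: Pgk1 had -0.092 without WT replicate 4 and -0.66 without WT replicate 1, and Pgam1 had 0.17 without KO replicate 1.

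Eno1, which encodes the enolase found in most tissues, had the largest log2 fold change of the 10 genes. It stood at 22.7, 22.8, 25.8 and 28.8 CPM in KO libraries, against 27.0, 48.0, 43.6 and 35.1 in WT libraries. All KO libraries lay below WT replicates 2, 3 and 4, and KO replicate 4 lay above WT replicate 1. It averaged 25.0 ± 2.88 CPM in KO, against 38.4 ± 9.33 in WT (SD, n = 4 each). The 95% interval of the log2 fold change, -0.62 ± 0.17 (SE), ran from -0.98 to -0.26. The unadjusted edgeR p was 0.00197 and the adjusted p 0.185, so Eno1 did not pass the threshold of 0.05. Without WT replicate 1, the library with the marker levels given above, the log2 fold change was -0.75 and the edgeR adjusted p 0.0490. The part of other cells in this result was not tested.

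Pkm and Ldha closed the pathway at high levels. Pkm stood at 669.6, 436, 585 and 650.3 CPM in KO libraries, against 566, 635, 531 and 674 in WT libraries, and KO replicate 2 was again the lowest library. Its log2 difference was -0.04 ± 0.13 (SE, edgeR adjusted p = 0.953), and 0.085 without KO replicate 2. Ldha stood at 815, 807, 888 and 854 CPM in KO libraries, against 821, 912, 949 and 1005 in WT libraries. WT replicates 2, 3 and 4 lay above all KO libraries and WT replicate 1 lay among them, and the log2 difference was -0.13 ± 0.11 (SE, edgeR adjusted p = 0.691). Pkm encodes the M1 and M2 forms by alternative exons, and 3′ counts do not tell them apart.

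Neighbours in the order of mean level were separated to different degrees. The order was Ldha, Pkm, Tpi1, Gpi1, Aldoa, Hk1, Eno1, Hk2, Pgk1 and Pgam1. Each of the first 7 exceeded the next gene in the order in 8 of 8 libraries, although the ranges of Pkm and Tpi1, and of Tpi1 and Gpi1, overlapped between libraries. Hk2 and Pgk1 did not differ beyond their spread. Hk2 was higher in 3 of 8 libraries and equal to Pgk1 in KO replicate 3 (24 UMIs each) and WT replicate 3 (21 UMIs each). Pgk1 lay above Pgam1 in 6 of 8. Ldha ranked 153 and Pgam1 8493 by mean level among the 10913 genes listed.

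Of the 10 genes, all of which passed the count filter, 0 were called higher and 0 lower in KO by edgeR at an adjusted p under 0.05. Over the 9016 tested genes 0.177% were called higher and 0.0333% lower, 0.211% in all. At an unadjusted p under 0.05 there was 1 of the 10, Eno1, against 10.8% of tested genes. DESeq2 called 0 of the 8 genes for which it gave an adjusted p, and gave none for Pgk1 and Pgam1. In 0 of the 10 did the KO and WT libraries separate without overlap, against 5.22% of tested genes. The median log2 fold change was -0.06 over the 10 genes and -0.0022 over all tested genes. The authors' deposited table gives all 10 genes in the same directions, with adjusted p-values of 0.231 to 0.991.

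A missed threshold does not show equal levels, and the 95% intervals, which are not adjusted for the number of genes, state what these libraries can resolve. For Ldha the interval of the KO over WT ratio was 0.781 to 1.07, for Gpi1 0.958 to 1.28, for Aldoa 0.813 to 1.11, and for Pkm 0.805 to 1.18. These abundant genes were measured narrowly. For Pgk1 it was 0.460 to 1.22 and for Pgam1 0.862 to 2.14. For Hk2 it was 0.865 to 1.67. Changes within these wider intervals could therefore not be resolved in these low genes with the depth and spread of these libraries. The interval of Eno1 was 0.507 to 0.836.

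**Figure D2:**
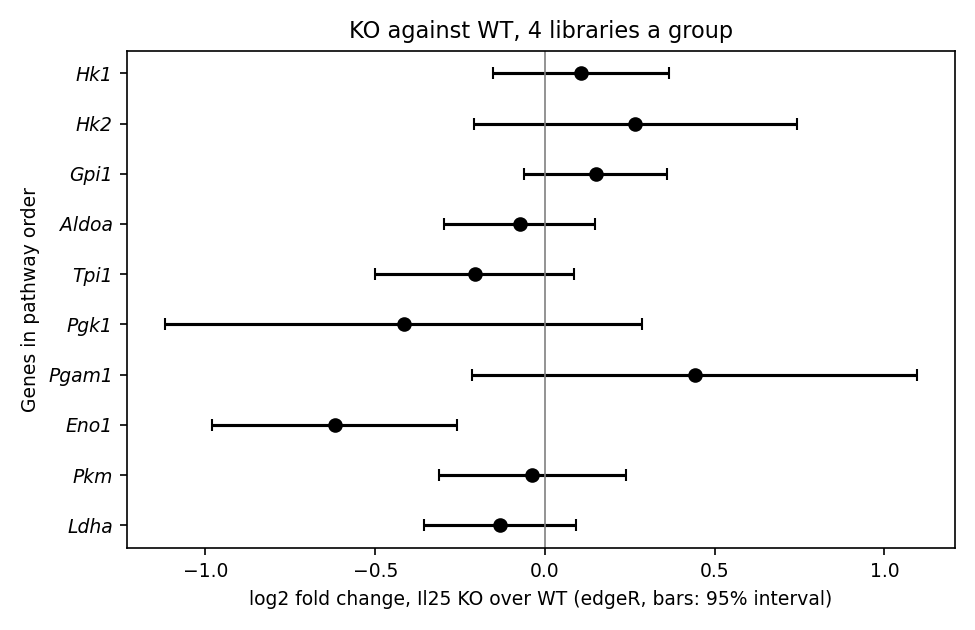
Log2 fold change of Il25 KO over WT for each gene in pathway order, with unadjusted 95% intervals from the edgeR fit (4 libraries a group). Intervals of Pgk1 and Pgam1 are the widest, and the interval of Eno1, from -0.98 to -0.26, lies below 0 while its adjusted p was 0.185.

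Along the pathway, Hk1, Hk2 and Gpi1 had log2 fold changes above 0, and the genes from Aldoa to Ldha had values below 0 except Pgam1. This split was noticed after the values were seen, and none of these differences passed the threshold. The summed level of the 10 genes was 2518, 2072, 2464 and 2571 CPM in KO libraries, against 2415, 2585, 2439 and 2773 in WT libraries. The groups overlapped, and the mean of 2407 ± 227 CPM in KO stood against 2553 ± 165 in WT (SD, n = 4 each). KO replicate 2, the shallowest library, had the lowest level of Hk1, Tpi1, Pkm and Ldha. WT replicate 4, the deepest, had the highest level of Tpi1, Pgk1, Pkm and Ldha, and KO replicate 4 the highest of Hk1, Hk2, Gpi1 and Aldoa. The part of depth in these levels was not tested beyond the total count covariate given in the closing section.

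**Figure D3:**
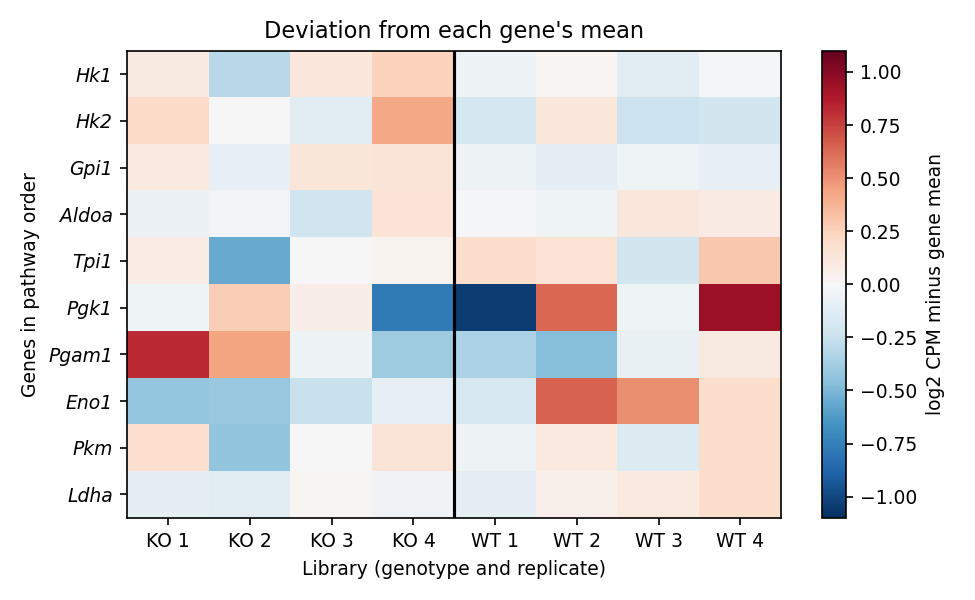
Deviation of each gene's log2 CPM from its mean over the 8 libraries, KO replicates left of the line and WT replicates right of it. The strongest colours are those of Pgk1 in WT replicates 1 and 4 and KO replicate 4, and of Pgam1 in KO replicate 1. KO replicate 2 is low for Tpi1, Pkm and Hk1.

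Several glycolytic enzyme genes have processed pseudogenes, copies of the spliced transcript elsewhere in the genome. The sources used here do not say how reads matching more than 1 gene were treated. For each gene, the windows of 50 bases of its principal GENCODE M21 transcript that occur exactly in a transcript of another, non-overlapping gene were counted. The share of such windows was 72.2% for Eno1, 68.0% for Pgk1, 41.5% for Pgam1 and 33.2% for Pkm. It was 19.3% for Gpi1, 17.1% for Ldha, 13.5% for Aldoa, 7.51% for Tpi1, and 0% for Hk1 and Hk2. The 3 genes with the highest shares had mean levels of 31.7, 7.996 and 5.22 CPM and the widest spread over the 8 libraries, with coefficients of variation of 30.3%, 44.5% and 35.0%. In the other 7 genes it was 7.59% to 17.2%. Counting error alone would give 11.1% for Eno1, 22.0% for Pgk1 and 27.3% for Pgam1, so Pgam1 spread little beyond it. For Tpi1 and Pkm it would give 3.08% and 2.56%, where the coefficients were 17.0% and 13.8%. These coefficients pool KO and WT, so that of Eno1 also holds its difference between the groups. Within groups the SD of log2 CPM was 0.283 for Eno1 and 0.263 for Tpi1, against 0.700 for Pgk1 and 0.417 for Pgam1. Pkm had a share of 33.2% and a mean of 593 CPM, and in its last 300 bases 0% of windows were shared. Hk2 had a low level with no shared window. The part of sharing in the levels and the spread was not tested.

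**Figure D4:**
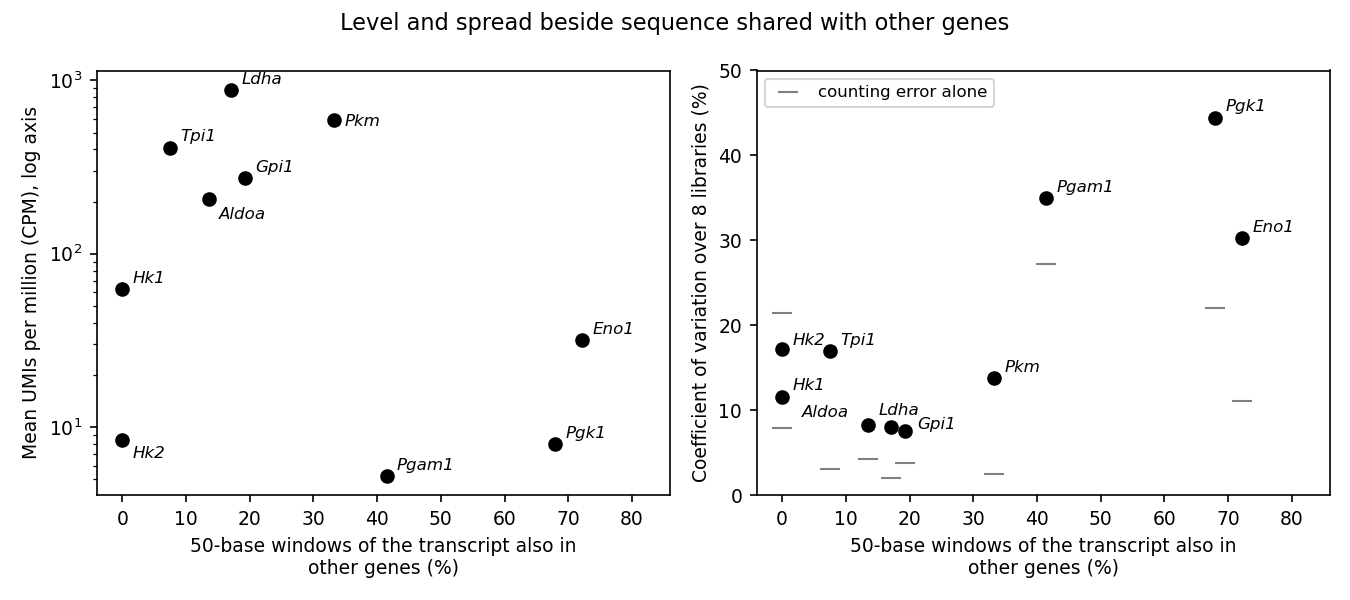
Mean level (left, log axis) and coefficient of variation over 8 libraries (right) of the 10 genes, against the share of 50-base windows of the transcript that also occur in other genes. Grey ticks mark the coefficient of variation that counting error alone gives; Eno1, Pgk1 and Pgam1, at 72.2%, 68.0% and 41.5%, have the 3 highest coefficients.

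The sharing lay in different parts of the transcripts. In the last 300 bases, the part nearest the poly(A) tail, 90.0% of windows were shared for Eno1, all of them with the near-identical gene Eno1b. Eno1b is listed with 0 to 9 UMIs a library, 9 in KO, against 1 in WT. All of its KO UMIs came from a single library, so they show no difference between the groups. In the same stretch 0% were shared for Pgk1 and Pgam1, and 6.18% of 8653 tested genes with a transcript had any shared window. For Pgam1 the closest copy instead matches the end of the coding part, which does not lie within those 300 bases. The last 60 coding bases, stop codon included, are shown for 2 genes beside the copy that shares most windows, because they show how far a read from there could be placed. Sequences are from GENCODE M21 (GRCm38), 5′ to 3′ in the sense of the transcript, and capitals mark bases that differ within a pair.
Pgam1 (chromosome 19): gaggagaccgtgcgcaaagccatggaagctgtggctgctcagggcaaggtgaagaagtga
Pgam1-ps2 (chromosome 7): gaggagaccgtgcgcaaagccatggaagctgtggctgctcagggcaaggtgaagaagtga
Gpi1 (chromosome 7): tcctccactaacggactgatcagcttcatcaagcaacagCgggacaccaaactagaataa
Gm1840 (chromosome 8): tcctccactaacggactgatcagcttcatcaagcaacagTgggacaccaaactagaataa

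The Pgam1 pair had 0 mismatches over 60 bases, and the Gpi1 pair had 1, C40T, counted from 1 at the 5′ end of the stretch with the base of Gpi1 first. No pseudogene that shares a window with any of the 10 genes is named in the table. The level of Eno1 is therefore uncertain, as are those of Pgk1 and Pgam1 where reads fell before the last 300 bases. Whether reads lost or split among copies lowered these levels was not tested. In GENCODE M21 coordinates Pgk1 lies on chromosome X from 106187100 to 106203699, Pgam1 on chromosome 19 from 41911923 to 41918660, Eno1 on chromosome 4 from 150236721 to 150248879 and Ldha on chromosome 7 from 46841475 to 46855627. All 4 lie on the plus strand.

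Promoters were searched for ACGTG, the core of the element that HIF-1 binds, and for CACGTG, the E-box that MYC binds and that contains ACGTG, on both strands of the 250 bases before each start in the RefSeq table (GRCm38.p6). Of the 10 genes, 6 held ACGTG before at least 1 of their starts, against 26.5% of 7324 tested genes in that table, and 1 held CACGTG, against 10.5%. In the start nearest to that of GENCODE 4 of the 10 held ACGTG and 0 held CACGTG, where 16.6% and 6.02% of all 32851 windows in the table did. The median number of CpG dinucleotides was 15.5 in the starts nearest to those of GENCODE, 16.0 over starts of tested genes and 6.0 over all windows. The windows of the whole table are thus not matched in CpG, which ACGTG contains, to those of the 10 genes. A match is a description of letters and not of binding. The promoters of Pgk1 and Hk2 are shown since each holds 2 matches of ACGTG, in capitals, in either orientation.
Pgk1, chrX:106186850-106187099, plus strand: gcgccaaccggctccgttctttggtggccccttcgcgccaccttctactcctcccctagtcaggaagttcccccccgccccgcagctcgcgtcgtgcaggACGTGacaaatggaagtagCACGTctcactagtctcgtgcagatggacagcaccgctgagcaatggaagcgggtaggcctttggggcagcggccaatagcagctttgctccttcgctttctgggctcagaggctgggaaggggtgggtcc
Hk2, chr6:82774455-82774704, minus strand: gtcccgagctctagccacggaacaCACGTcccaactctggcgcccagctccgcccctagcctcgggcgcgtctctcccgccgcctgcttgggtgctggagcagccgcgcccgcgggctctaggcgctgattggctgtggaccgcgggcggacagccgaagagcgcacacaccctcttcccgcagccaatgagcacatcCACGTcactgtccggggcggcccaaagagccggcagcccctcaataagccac

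The wider pathway was read from 9 lists of 103 genes, of which 86 were listed and 77 tested. Of these 77, edgeR called 0 higher and 0 lower in KO, and 11 had an unadjusted p under 0.05, where 10.8% of all tested genes did. The median log2 fold change was -0.02, with 32 above and 45 below 0, against 4467 above and 4549 below over all tested genes. In 6 of the 77 all KO libraries lay below all WT libraries, where 2.31% of tested genes did, and these were Ldhb, Bsg, Pfkfb2, Dlat, Sdhb and Ero1l. In 1, Mycn, they lay above, where 2.92% of tested genes did. None of these 7 passed the adjusted threshold.

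Among other isozymes of the same steps and of the steps between them, 9 of 20 were tested and 0 passed. Ldhb, which encodes the heart-type chain of lactate dehydrogenase, stood at 41.8, 48.1, 38.4 and 46.3 CPM in KO libraries, against 151, 66.1, 55.8 and 66.4 in WT libraries. All KO libraries lay below all WT libraries. The fitted log2 difference was -0.95 ± 0.23 (SE, edgeR adjusted p = 0.121). Without WT replicate 1 the log2 fold change was -0.53 (edgeR adjusted p = 0.0891), so that library moved its size by over 1.5 times. Ldhb made up 4.95 ± 0.620% of the UMIs of Ldha and Ldhb in KO and 8.51 ± 4.70% in WT (SD, n = 4 each), with overlapping ranges. Pfkl, the phosphofructokinase isozyme known from liver, stood at 56.9 ± 8.51 CPM in KO, against 46.8 ± 4.56 in WT (SD, n = 4 each), a log2 difference of 0.28 ± 0.13 (SE, edgeR adjusted p = 0.442). Eno2 and Pgam2, the neuronal enolase and the muscle mutase, averaged under 10 CPM in both groups, with log2 fold changes of -0.70 ± 0.36 and -0.53 ± 0.28 (SE). Over all libraries Pgam2 held 157 UMIs, against 110 for Pgam1.

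Gapdh, named here after its values were seen, varied more than any of the 10 genes. It stood at 619, 15.0, 26.1 and 27.9 CPM in KO libraries, against 21.4, 39.0, 1162 and 960.1 in WT libraries. KO replicate 1 and WT replicates 3 and 4 were high and the other 5 libraries low, so the spread did not follow genotype. In its last 300 bases 82.9% of windows were shared with 98 other genes, 96 of them pseudogenes, and the part of those copies in the spread was not tested.

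Of the glucose and lactate transport genes, 5 of 7 were tested and 0 passed. Bsg, which encodes the chaperone of lactate transporters, stood at 171, 159.9, 201 and 200.1 CPM in KO libraries, against 216, 259, 202 and 251 in WT libraries. All KO libraries lay below all WT libraries, the closest pair by less than 1 CPM, and the log2 difference was -0.34 ± 0.12 (SE, edgeR adjusted p = 0.273). Slc2a3, which encodes the glucose transporter GLUT3, had 0.29 ± 0.16, Slc2a8 -0.64 ± 0.34 and the lactate exporter gene Slc16a3 -0.02 ± 0.23 (SE).

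Regulators and branches of the pathway gave similar counts. Of the genes for phosphofructokinase regulators 3 of 5 were tested and 0 passed, with log2 differences of -0.65 ± 0.26 for Pfkfb2, 0.11 ± 0.24 for Pfkfb4 and 0.0021 ± 0.12 for Pfkfb3 (SE). Pfkfb3, which makes the activator fructose 2,6-bisphosphate, averaged 84.9 CPM in KO, against 85.2 in WT. Of the genes for entry of pyruvate into mitochondria 10 of 13 were tested and 0 passed. Dlat, a subunit of pyruvate dehydrogenase, had -0.58 ± 0.27, the pyruvate carrier gene Mpc2 -0.12 ± 0.12, Pdhb -0.08 ± 0.10 and Pdk2 0.26 ± 0.36 (SE).

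The pentose phosphate pathway, which draws glucose 6-phosphate off to make NADPH and ribose, had 6 of 7 genes tested and 0 passed, with log2 fold changes of -0.12 to 0.02. Pgls and Taldo1 averaged 686 and 638 CPM in KO, against 739 and 669 in WT, and the log2 differences were -0.12 ± 0.11 for Rpia and -0.10 ± 0.12 for G6pdx (SE). The tricarboxylic acid cycle, which burns the products of pyruvate in mitochondria, had 15 of 16 tested and 0 passed, with log2 fold changes of -0.19 to 0.15. Its subunit genes of succinate dehydrogenase went both ways, with Sdhb at -0.19 ± 0.11, Sdhc at 0.15 ± 0.11 and Sdhd at -0.16 ± 0.13 (SE), and Idh3b had -0.12 ± 0.10. Of the glycogen and sugar phosphate genes 9 of 10 were tested and 0 passed, with Gys1 at -0.33 ± 0.21, Pygb at 0.20 ± 0.16, Gfpt1 at -0.25 ± 0.21 and Gbe1 at 0.27 ± 0.25 (SE).

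Of the genes for transcription factors known to act on glycolytic genes, and for their regulators, 8 of 10 were tested and 0 passed. Myc stood at 115, 55.4, 143 and 78.4 CPM in KO libraries, against 55.3, 47.2, 46.7 and 66.4 in WT libraries. KO replicates 1, 3 and 4 lay above all WT libraries and KO replicate 2 lay among them. The log2 fold change of Myc was 0.88 ± 0.21 (SE, edgeR adjusted p = 0.0988). Over the left-out libraries it was lowest without KO replicate 3, at 0.63 (edgeR adjusted p = 0.359). It was highest without KO replicate 2, at 1.07 (edgeR adjusted p = 0.00717). DESeq2 gave Myc an adjusted p of 0.284. Mycn, a close relative, stood at 14.2 to 23.5 CPM in KO, against 11.1 to 13.3 in WT, a log2 difference of 0.66 ± 0.19 (SE, edgeR adjusted p = 0.204). Hif1a, which encodes the oxygen-sensing subunit of HIF-1, had -0.32 ± 0.15 (SE, edgeR adjusted p = 0.432) and Mlxip 0.25 ± 0.21. Of HIF-1 target genes outside glycolysis 12 of 15 were tested and 0 passed, with 7 above and 5 below 0. Ero1l, Ddit4, Bnip3l and Vegfa had log2 fold changes of -0.82 ± 0.31, 0.37 ± 0.17, -0.34 ± 0.16 and 0.22 ± 0.13 (SE). Ddit4 stood at 123 to 135 CPM in KO, and at 155 CPM in WT replicate 1 against 73.1 to 88.6 CPM in the other WT libraries.

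The genes whose level over the 8 libraries was most like the mean standardised profile of the 10 were Nmi, G6pc3, Nars, Hmgb1 and Kti12, with Pearson's r of 0.96, 0.95, 0.92, 0.91 and 0.91, as a description among 5607 candidates of at least 20 CPM. With 8 libraries that share their depth with the profile, r of this size says nothing of a link. G6pc3, a glucose-6-phosphatase gene of the glycogen and sugar phosphate list, stood at 40.6, 21.2, 31.9 and 47.1 CPM in KO libraries, against 31.3, 42.1, 36.5 and 44.9 in WT libraries. It was lowest in KO replicate 2, as were Hk1, Tpi1, Pkm and Ldha.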

How the data were processed

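The authors deposited 1 table of 10913 genes for 8 libraries. Its raw UMI counts, per the file headers, are whole numbers per gene and library and were used for every test. Per the submitters' processing notes the tools included STAR 2.5.2b, HTSeq and DESeq2 on mm10; their roles are not given. The authors also deposited a log2 fold change, with WT on top, and an adjusted p-value; the sign of the first is reversed here. Tests used edgeR 4.0.16 (R 4.3.3): filterByExpr (minimum count 10) kept 9016 genes, libraries were scaled by TMM, and a quasi-likelihood model of genotype alone was fitted over the 8 libraries, with Benjamini-Hochberg adjustment over all tested genes and a threshold of 0.05. SE came from the F statistic. The fit was tested on simulated data. No pair of libraries agreed within sampling noise. Alternatives changed the test (DESeq2 1.42.0, limma 3.58.1), the scaling, the filter or the covariates, or left out each library in turn.

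The 10 genes and all lists were chosen with earlier results of these data known. The genes named are the 10, up to 4 tested genes of each wider list with the lowest p, and the 5 genes of most similar profile. Gapdh, Eno1b, Spsb2, Hk1os and the other overlapping genes, the copies and the single marker genes were named after values were seen. The marker lists of ILC2, of thymocytes and T cells and of B cells, dendritic cells and macrophages are given with the libraries. Those of NK cells and ILC1 summed to 782 to 963 CPM in KO libraries, against 751 to 913 in WT libraries, over 4 of 9 genes, of which Ifng was called higher in KO (log2 fold change 0.66, edgeR adjusted p = 0.0187), and those of thymic epithelium, tuft cells, fibroblasts and endothelium to 59.6 to 104 CPM in KO, against 61.9 to 82.3 in WT, over 7 of 12.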

Additional observations from a re-analysis of the deposited data

Results flagged for a closer look

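In 7 groups of 4 libraries the highest or lowest library stood apart by Dixon's test. This was tried on 112 groups, and chance flags about 1 in 20. KO replicate 2 was low for Gpi1, at 255 CPM where the next KO library had 293, and for Tpi1, at 274 where the next had 402. WT replicate 2 was high for Hk2, at 9.05 CPM where the next WT library had 7.28. WT replicate 1 was high for Ldhb, at 151 CPM where the next WT library had 66.4, and the Ldhb share of Ldha and Ldhb UMIs there was 15.5% where the next had 6.76%. KO replicate 1 was high for Gapdh, at 619 CPM where the next KO library had 27.9. KO replicate 4 was high for Slc2a3, at 52.1 CPM where the next KO library had 36.1.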

How the results depend on the processing

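Of 160 values of the 10 genes under 16 alternatives, 158 had an adjusted p, and 154 of these kept their direction and side of the threshold; DESeq2 gave none for Pgk1 and Pgam1. Leaving out single libraries moved several small values by over 1.5 times without a call: Hk1 ranged from 0.036 (without KO replicate 4) to 0.21 (without KO replicate 2), Hk2 from 0.16 (without KO replicate 4) to 0.35, Aldoa from -0.14 (without KO replicate 4) to -0.018 (without KO replicate 3), Tpi1 from -0.30 to -0.076 (without KO replicate 2), Pgk1 from -0.66 (without WT replicate 1) to -0.092 (without WT replicate 4), and Pgam1 from 0.17 (without KO replicate 1) to 0.60. Pkm changed direction, to 0.061 with log2 total count as a covariate, and ranged from -0.11 to 0.085 when single libraries were left out (0.085 without KO replicate 2 and 0.022 without WT replicate 4). Eno1 passed only without WT replicate 1, so the glycolytic genes called lower ranged from 0 to 1 over the left-out libraries, and its adjusted p over all alternatives ranged from 0.0490 to 0.518. Over all genes, 19 were called, against 45 by DESeq2, 40 with the total count covariate, and 1 (without WT replicate 2) to 39 (without KO replicate 2) without single libraries, with 4 without WT replicate 4. With the replicate number as a block 60 genes were called, Ldhb among them as the 1 wider-pathway gene called lower (adjusted p 0.0421). Same-numbered libraries had correlated deviations of 0.134, -0.0077, -0.0017 and 0.085, and 2 of 4 KO libraries correlated best with their own number, so the numbers were not taken to pair samples. Of the wider pathway, the total count covariate called 1 lower, Ldhb, and 1 higher, Myc, and leaving out a library called 0 to 1 higher: Myc without KO replicate 2 and Ddit4 without WT replicate 1. The log2 ratio of the summed level, -0.085, was -0.014 without KO replicate 2, -0.044 without WT replicate 4 and -0.056 with library size alone, and lay between -0.12 and -0.080 under the other alternatives that give one. For Pgk1, Pgam1 and Hk2, 8 to 45 UMIs a library limit what can be resolved. The cause of these changes was not tested.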
